A study of Mus musculus with 6 samples.

Results

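Hepatic stellate cells from the tumour region of livers of mice on a high fat diet were compared with stellate cells from normal diet livers, at each of the isolation temperatures of 37 and 6 degrees. Genes were chosen where the difference between tumour region and normal diet was at least 2-fold in the same direction at both temperatures. The difference was taken on log2(FPKM + 1), where FPKM counts the sequenced fragments of a gene after correction for transcript length and library size. Endothelial and macrophage marker genes were then left out. Of 11556 genes tested, 438 met this rule, 292 of them higher and 146 lower in the tumour region. A further 79 genes that met it in the higher direction were left out, 8 of the 57 endothelial and 71 of the 94 macrophage markers tested; no marker was left out in the lower direction.

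All mice were wild type C57BL/6 animals aged 35 weeks. The series holds 6 libraries of sorted cells that were negative for CD31 (the endothelial protein of Pecam1) and CD45.2 (the leukocyte protein of Ptprc) and positive for CD49a (the integrin of Itga1). Normal diet livers gave 2 libraries, 1 isolated by perfusion at 37 and 1 at 6 degrees. Livers of the high fat diet gave the same 2 from the tumour and 2 from the part outside it, called non-tumour here. The sources used here do not say how many animals a library holds, how long the diet lasted, or how tumours arose. With 1 library per source and temperature, no spread between like libraries could be measured. The p-values weigh a source difference only against the departure of these 6 libraries from added source and temperature effects. That departure may be technical or a source difference that changes with temperature.

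Stellate cells lie between the hepatocytes and the sinusoidal endothelium, where they store vitamin A and make proteoglycans and growth factors of the perisinusoidal space. After injury they can become contractile, matrix-producing myofibroblasts, with actin stress fibres, more fibronectin and fibrillar collagen, and a secretion of cytokines and protease inhibitors. Stellate cells are also a main source of the fibroblasts that surround liver tumours.

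The libraries held an estimated 17500000 to 24600000 fragments, so that 1 FPKM on a transcript of 2 kb stood for about 35.0 to 49.1 fragments. Stellate cell genes were high in all 6 libraries. The retinol esterification gene Lrat was at 494 and 335 FPKM in normal diet and 483 and 361 FPKM in tumour region cells (37 and then 6 degrees, the order used throughout), and the filament gene Des at 135 and 111 FPKM in normal diet and 123 and 105 in the tumour region. The genes of the sort markers differed. Itga1 was at 90.5 and 87.6 FPKM in normal diet, 204 and 161 in non-tumour and 179 and 172 in tumour region cells. Ptprc was at 0.397 and 1.75 FPKM in normal diet and 5.44 and 16.5 in tumour region cells, and Pecam1 at 0.9 and 31.4 FPKM in normal diet and 10.7 and 53.04 in the tumour region. The summed level of the macrophage markers was 975 and 1800 FPKM in normal diet, 1156 and 2419 in non-tumour and 3203 and 5998 in tumour region libraries. For the endothelial markers the sums were 4259 and 6562 FPKM in normal diet, 7742 and 12160 in non-tumour and 6639 and 8330 in tumour region libraries. In bulk libraries fewer cells of a type and less RNA per cell cannot be told apart.

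**Figure D1:**
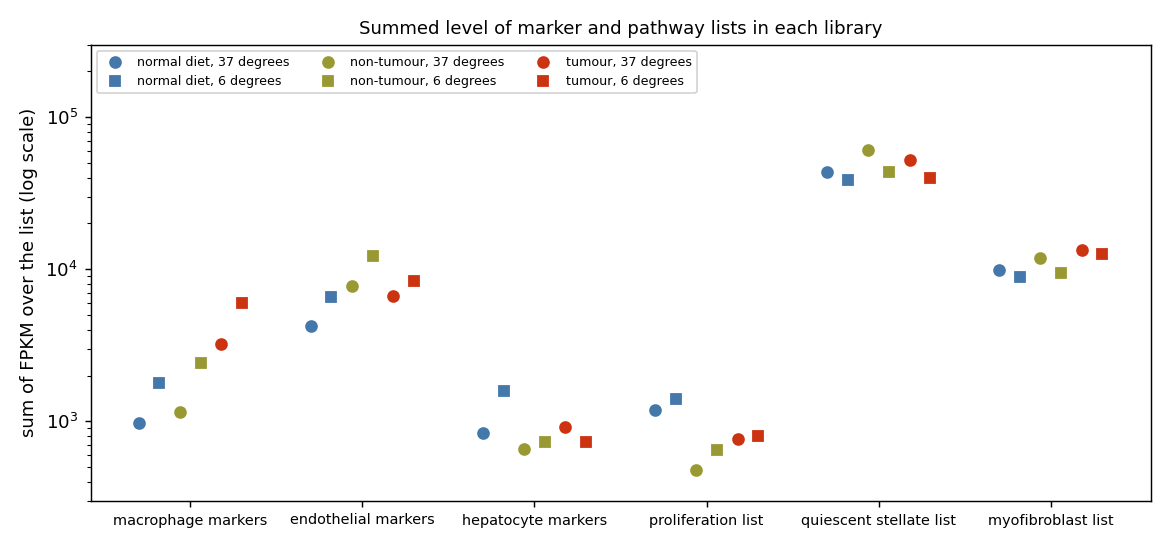
Summed FPKM (vertical axis, log scale) of 3 cell type marker lists and of the proliferation, quiescent stellate and myofibroblast lists. Each point is 1 library, coloured by liver source, with circles for 37 and squares for 6 degrees. The macrophage sum was highest in the 2 tumour region libraries (3203 and 5998 FPKM) and the proliferation sum was highest in the 2 normal diet libraries (1185 and 1406 FPKM).

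Of the 11556 genes, 1082 (9.36%) passed limma at an adjusted p under 0.05 for tumour region against normal diet, 702 (6.07%) higher and 380 (3.29%) lower; the median log2 difference over all genes was 0.01. Among the chosen genes 259 of the 292 higher and 144 of the 146 lower ones passed. Both counts follow from the same contrast that chose the genes, and nothing is read from them. Tumour region and normal diet levels did not overlap for 258 of the 292 higher and 145 of the 146 lower genes. The rule favours this and the share over all genes was not counted, so nothing is read from levels that do not overlap. The mean in the lower group was under 1 FPKM for 80 of the 292 higher and 30 of the 146 lower genes, so that such genes passed the low-value filter through the other libraries. With quantile normalization 541 genes passed as higher and 471 as lower, which moved the higher share of calls from 64.9% to 53.5%. Without the temperature term 4 genes passed, and without the low-value filter 505. The genes just inside the rule were Tgif1 and Emb for higher and H1fx and Iqgap3 for lower, with smaller differences of 1.0002, 1.0022, -1.003 and -1.0039. Those just outside were P2ry6 and Tnfrsf11b (0.9915 and 0.9891) and Lpar1 and Cdkn1c (-0.9991 and -0.9946).

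**Figure D2:**
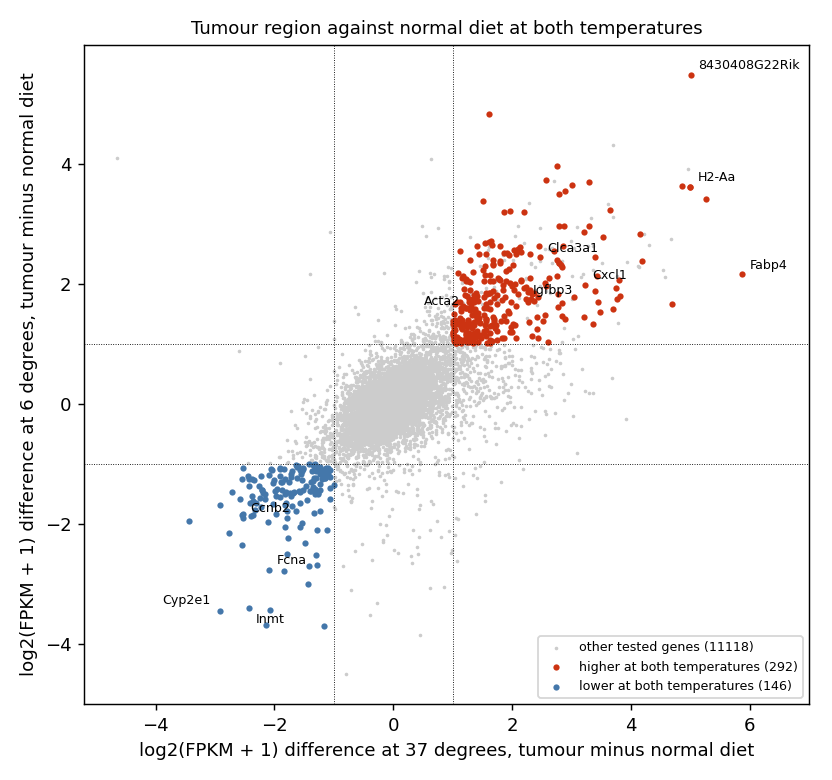
Difference between tumour region and normal diet on the log2(FPKM + 1) scale at 37 degrees (horizontal axis) and at 6 degrees (vertical axis) for 11556 genes, 1 point per gene; dotted lines mark a 2-fold difference. Red points are the 292 higher and blue points the 146 lower genes, and 11118 grey points are all other genes tested, among them the endothelial and macrophage markers.

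The higher and lower genes differed in how the non-tumour region stood. Of the 146 lower genes, 128 were also at least 2-fold lower in the non-tumour region than in normal diet at both temperatures, and 7 were under 2-fold at both. Of the 292 higher genes, 91 were at least 2-fold higher in the non-tumour region at both temperatures and 118 were under 2-fold at both. The non-tumour comparison uses the same normal diet libraries that chose the genes, so these counts are no separate evidence. The matching counts over all genes tested were not made, so the contrast between higher and lower genes is only a description. Levels were within 2-fold between the temperatures, in tumour region and in normal diet cells, for 143 higher and 102 lower genes. The share of all genes within 2-fold was not counted, so nothing is read from these 2 counts. A further 60 higher genes were at least 2-fold lower at 37 degrees in both pairs of libraries, compared with 289 (2.5%) of all genes, 48 of the 94 macrophage and 38 of the 57 endothelial markers; 1 lower gene was.

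**Figure D3:**
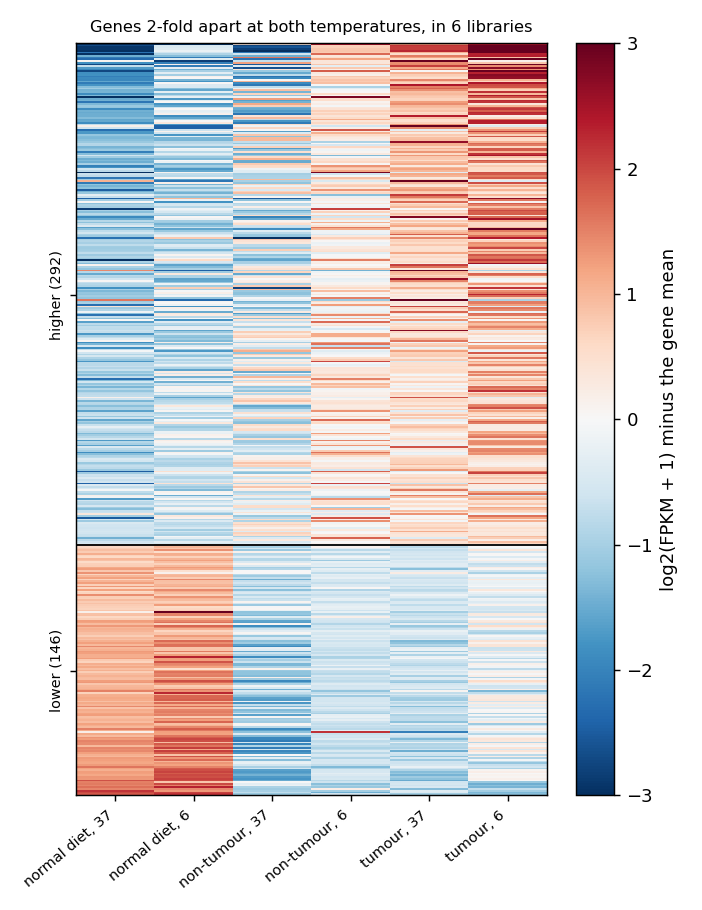
Level of the 438 genes (rows, higher genes above the line and lower genes below it, each ordered by the smaller of their differences) in 6 libraries (columns), as log2(FPKM + 1) minus the mean of the gene; red is above and blue below that mean. The 146 lower genes were below their mean in most non-tumour as well as tumour region libraries, while the 292 higher genes were mixed in the non-tumour libraries.

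Clca3a1, Igfbp3 and Sod3 were among the abundant genes that were higher in the tumour region at both temperatures, and their tumour and non-tumour levels overlapped. Clca3a1, which encodes a secreted protein of the calcium-activated chloride channel regulator family (chromosome 3, 144729677 to 144760977, GRCm38), was at 53.1 and 45.2 FPKM in normal diet, 322 and 275 in non-tumour and 299.9 and 249 in tumour region cells. Its levels in the high fat diet libraries did not overlap those of normal diet, and it rose by 2.46 ± 0.08 on the log2 scale (tumour minus normal diet, standard error from the model, limma adjusted p = 0.00322). Igfbp3, a carrier of insulin-like growth factors (chromosome 11, 7206086 to 7213923), was at 354 and 318 FPKM in normal diet, 1643 and 963 in non-tumour and 1633 and 1207 in tumour region cells. It rose by 2.06 ± 0.16 (limma adjusted p = 0.00716). Sod3, the extracellular superoxide dismutase (chromosome 5, 52363791 to 52371418), was the most abundant of these genes, at 1890.1 and 1610.4 FPKM in normal diet, 6771 and 4998 in non-tumour and 5821 and 4813 in tumour region cells. For these 3 genes the tumour minus non-tumour differences of -0.12 ± 0.08, 0.16 ± 0.16 and -0.14 ± 0.11 did not pass (limma adjusted p = 0.63, 0.757 and 0.696).

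Ranked by the smaller of the differences at the 2 temperatures, the first gene was 8430408G22Rik, at 0.338 and 1.08 FPKM in normal diet, 20.9 and 95.1 in non-tumour and 42.2 and 92.2 in tumour region cells. It was low in normal diet and rose by 5.25 ± 0.34 (limma adjusted p = 0.00693). Its level was lower at 37 than at 6 degrees in every source, as were the endothelial and macrophage marker sums. The part of other cells in this gene was not tested. Zbtb8b, a zinc finger gene, and Olfm2, which encodes a secreted olfactomedin, were also low in normal diet and higher in both high fat diet regions. Unlike 8430408G22Rik, they were higher at 37 than at 6 degrees in every source. Zbtb8b was at 1.04 and 1.01 FPKM in normal diet, 25.4 and 11.5 in non-tumour and 19.002 and 14.6 in tumour region cells. Olfm2 was at 2.16 and 1.73 FPKM in normal diet, 24.9 and 13.3 in non-tumour and 28.3 and 18.8 in tumour region cells. Ptger3, a receptor for prostaglandin E2, was at 2.76 and 2.67 FPKM in normal diet and 16.7 and 13.1 in tumour region cells, and Kcne4, a potassium channel subunit, at 37.8 and 11.2 FPKM in normal diet and 94.4 and 34.98 in the tumour region. Kcne4 levels followed temperature as well, being higher at 37 degrees in every source, so that its groups overlapped while both pairs moved the same way.

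Contractile genes, which myofibroblasts share with smooth muscle, included 6 higher members and 1 lower one. Of the 40 contractile and adhesion genes tested, 15 passed as higher and 1 as lower, with a median log2 difference of 0.506 (0.011 over all genes). Acta2, smooth muscle actin and the usual mark of activated stellate cells (chromosome 19, 34241090 to 34255590), was at 107 and 112 FPKM in normal diet, 122 and 93.97 in non-tumour and 266 and 337 in tumour region cells. The tumour region libraries stood above all others, while normal diet and non-tumour levels overlapped, and Acta2 rose by 1.44 ± 0.17 against normal diet (limma adjusted p = 0.0126). Its difference from the non-tumour region was 1.47 ± 0.17, which did not pass (limma adjusted p = 0.0546). Actg2, another smooth muscle actin, was at 4.14 and 3.53 FPKM in normal diet, 2.56 and 2.05 in non-tumour and 17.7 and 40.3 in tumour region cells. Tagln, an actin cross-linking protein, and Tpm1, tropomyosin, were intermediate in the non-tumour region. Tagln was at 349.9 and 215 FPKM in normal diet, 604 and 503 in non-tumour and 857 and 803 in tumour region cells (1.59 ± 0.16, limma adjusted p = 0.00881). Tpm1 was at 226 and 220.0 FPKM in normal diet, 558 and 431 in non-tumour and 730.2 and 599 in tumour region cells. Fhl2, a LIM-domain cofactor found with the actin cytoskeleton and in the nucleus, was at 9.81 and 8.8 FPKM in normal diet and 75.6 and 47.7 in tumour region cells. Itga8, the integrin alpha 8 chain of stellate cells, was the 1 lower member of the list, at 58.3 and 62.6 FPKM in normal diet and 27.5 and 28.3 in the tumour region. The contractile calls fell to 8 with quantile normalization, to 9 without the low-value filter and to 5, 6 and 8 without the 37 degree normal diet, 6 degree normal diet and 6 degree tumour region library. Markers of vascular smooth muscle moved with this group. Of 14 tested, 7 passed as higher and none as lower (median 0.982), and their sum was 1331 and 1083 FPKM in normal diet, 2077 and 1711 in non-tumour and 2436 and 2204 in tumour region libraries. Acta2, Actg2, Tagln and Cnn1 are on both lists. Myh11, smooth muscle myosin, named after its values were seen, was at 13.3 and 7.71 FPKM in normal diet and 21.04 and 25.6 in tumour region cells and did not pass (limma adjusted p = 0.0727), and Rergl was listed at 0 in all 6 libraries. The smooth muscle calls fell to 3 without either normal diet library and to 4 with a mean of at least 5 FPKM. The part of smooth muscle cells in the contractile genes was not tested.

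**Figure D4:**
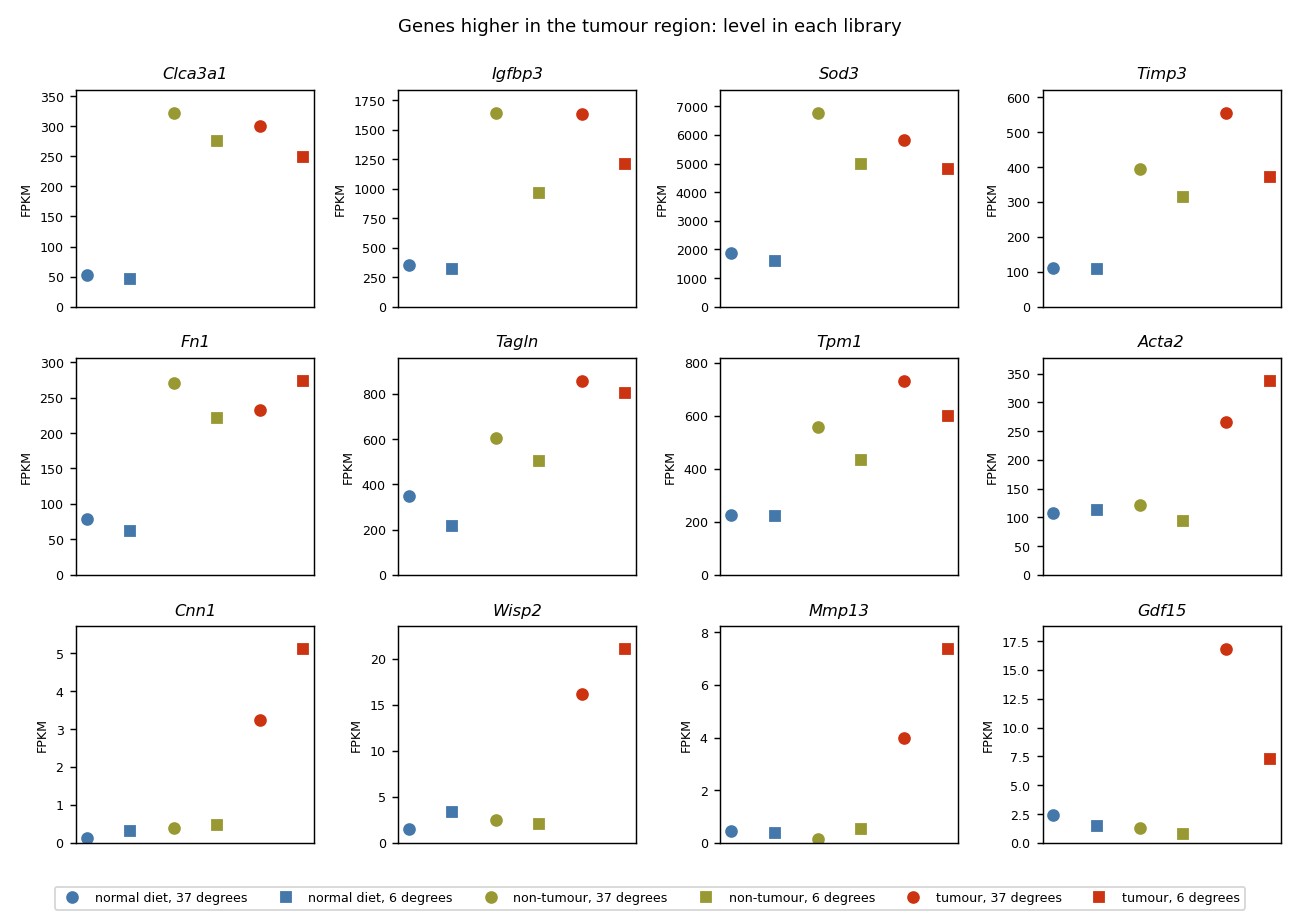
Level in FPKM (vertical axis, from 0) of 12 genes higher in the tumour region, 1 panel per gene and 1 point per library, coloured by source with circles for 37 and squares for 6 degrees. Clca3a1, Igfbp3, Sod3, Timp3 and Fn1 were above normal diet in the non-tumour region as well, whereas Acta2, Cnn1, Wisp2, Mmp13 and Gdf15 stood apart in the 2 tumour region libraries.

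Matrix genes moved unevenly. Of 45 matrix glycoprotein and proteoglycan genes tested, 11 passed as higher and 4 as lower (median 0.329), and 8 were members in the higher and 1 in the lower direction. Fn1, fibronectin (chromosome 1, 71585520 to 71653200), was at 78.8 and 61.2 FPKM in normal diet, 271 and 221 in non-tumour and 232 and 273 in tumour region cells and rose by 1.84 ± 0.16 (limma adjusted p = 0.00716). Thbs1, thrombospondin 1, an activator of latent TGF-beta, was at 40.7 and 10.4 FPKM in normal diet, 94.3 and 69.2 in non-tumour and 162 and 104 in tumour region cells. Vtn, vitronectin, was at 21.4 and 12.9 FPKM in normal diet and 68.01 and 55.9 in tumour region cells. It is also on the hepatocyte marker list, and the part of hepatocyte RNA in it was not tested. Cd44, the hyaluronan receptor, was at 10.3 and 9.73 FPKM in normal diet and 32.9 and 31.4 in the tumour region. Tumour region and normal diet levels did not overlap for these 4 genes, which the rule favours, while tumour and non-tumour levels of Fn1 did. Ogn, a small leucine-rich proteoglycan, fell by 1.94 on the log2 scale, from 20.8 and 19.3 FPKM to 5.17 and 3.85 FPKM. The main fibrillar collagens were not among the members. Col1a1, named after its values were seen, was at 293 and 389 FPKM in normal diet and 299 and 389 in tumour region cells, a log2 difference of 0.01 ± 0.21 (limma adjusted p = 0.976), and Col3a1 at 993 and 1049 FPKM in normal diet and 855 and 1246 in the tumour region. Of 29 genes of the collagen list 5 passed as higher and 2 as lower, with a median of 0.052, and Col18a1, the source of endostatin, was its 1 member (3.51 and 3.15 FPKM in normal diet and 12.4 and 22.3 in the tumour region). Matrix glycoprotein calls fell to 6 without the low-value filter and to 7 without the 37 degree normal diet library.

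Proteases and their inhibitors also went in both directions. Timp3, a matrix-bound metalloproteinase inhibitor (chromosome 10, 86300372 to 86349506), was at 110.2 and 109 FPKM in normal diet, 396 and 313 in non-tumour and 555 and 370.2 in tumour region cells and rose by 2.04 ± 0.15 (limma adjusted p = 0.00693). Mmp13, an interstitial collagenase, was low, at 0.434 and 0.36 FPKM in normal diet, 0.13 and 0.543 in non-tumour and 3.98 and 7.36 in tumour region cells, and only the tumour region libraries exceeded 1 FPKM. Mmp2, gelatinase A (chromosome 8, 92827291 to 92853420), was lower, at 114 and 99.6 FPKM in normal diet, 42.5 and 32.3 in non-tumour and 46.9 and 34.5 in tumour region cells (-1.39 ± 0.10, limma adjusted p = 0.00693). Htra3, a secreted serine protease, was at 66.9 and 59.4 FPKM in normal diet, 27.5 and 20.4 in non-tumour and 27.3 and 20.5 in tumour region cells. Cthrc1, a secreted collagen triple helix repeat protein often counted as a myofibroblast gene, was also lower, at 7.54 and 18.98 FPKM in normal diet and 2.51 and 2.08 in the tumour region; its call was lost without either normal diet or either non-tumour library. Over the 42 myofibroblast genes tested, 19 passed as higher and 3 as lower (median 0.608). That count was 8 without the low-value filter, 12 without the 6 degree tumour region library and 8 and 9 without the 37 and the 6 degree normal diet library.

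Growth factor and signalling genes among the higher members included ligands of the TGF-beta family. Tgfb2, a TGF-beta ligand (chromosome 1, 186622792 to 186705989), was at 4.12 and 2.78 FPKM in normal diet, 17.2 and 9.59 in non-tumour and 20.9 and 21.5 in tumour region cells and rose by 2.33 ± 0.21 (limma adjusted p = 0.00741). Gdf15, a distant relative induced by cell stress, was at 2.46 and 1.51 FPKM in normal diet, 1.28 and 0.742 in non-tumour and 16.8 and 7.24 in tumour region cells, with both non-tumour libraries below normal diet at the same temperature. Bmper, an extracellular regulator of BMP signalling, was at 5.77 and 2.61 FPKM in normal diet and 15.2 and 13.8 in the tumour region. Of the 30 TGF-beta and activin genes tested, 5 passed as higher and 3 as lower (median 0.141). In the Wnt, hedgehog and Notch list 4 of 32 genes were members, all lower, while 2 passed as higher and 6 as lower with a median of -0.023. The lower calls fell to 2 without either normal diet library and to 4 without the 37 degree tumour region library. Hhip, a hedgehog-binding inhibitor, was at 29.9 and 29.1 FPKM in normal diet and 11.2 and 7.47 in tumour region cells, and Dhh, a hedgehog ligand, at 8.4 and 8.23 FPKM in normal diet and 3.24 and 2.92 in the tumour region. Tcf7, a Wnt-responsive transcription factor, was at 12.7 and 12.3 FPKM in normal diet and 2.49 and 3.59 in the tumour region. Hes1, a Notch target and transcriptional repressor, was at 266 and 114 FPKM in normal diet and 123 and 53.3 in tumour region cells. It was higher at 37 degrees in both sources, so its groups overlapped. The calls of Tcf7 and Dhh were lost without either normal diet library, that of Dhh also without the 37 degree tumour region library, and that of Hes1 without the 37 degree normal diet library.

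Of 30 complement and acute phase genes tested, 11 passed as higher and none as lower (median 0.713). C6, a component of the membrane attack complex (chromosome 15, 4727175 to 4814967), was at 39.9 and 33.2 FPKM in normal diet, 188 and 148 in non-tumour and 179.7 and 140.1 in tumour region cells and rose by 2.095 ± 0.083 (limma adjusted p = 0.00442). Serpina3n, an inhibitor of granzyme and elastase-like proteases, was at 1.32 and 2.33 FPKM in normal diet, 10.6 and 8.8 in non-tumour and 25.9 and 21.8 in tumour region cells, and its relative Serpina3g at 50.9 and 74.3 FPKM in normal diet, 253 and 329.9 in non-tumour and 353 and 264 in tumour region cells. The Serpina3 genes are related in sequence, so how reads were divided between them is uncertain. C5ar1 and Cfp, a complement receptor and properdin of myeloid cells, differed from C6 in their pattern. C5ar1 was at 0.0615 and 2.75 FPKM in normal diet and 4.66 and 9.24 in tumour region cells. Cfp was at 3.73 and 26.5 FPKM in normal diet and 34.1 and 72.3 in the tumour region and did not pass (limma adjusted p = 0.0623). Both genes were lower at 37 degrees in each source, as was the macrophage marker sum. The part of other cells in these 2 genes was not tested. The complement calls fell to 6 without the 37 degree normal diet library.

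Chemokines, interleukins and their receptors were among the higher members. Of 49 cytokine and chemokine genes tested, 16 were members in the higher and 1 in the lower direction, and 19 passed as higher and 2 as lower (median 0.784). Ccl2, which attracts monocytes (chromosome 11, 82035571 to 82037453), was at 196 and 97.98 FPKM in normal diet, 472 and 411 in non-tumour and 818 and 394 in tumour region cells and rose by 2.02 ± 0.22 (limma adjusted p = 0.0103). Ccl8, a ligand of the same family, was at 6.58 and 1.95 FPKM in normal diet, 8.6 and 9.17 in non-tumour and 51.5 and 32.1 in tumour region cells, and Ccl19, which attracts dendritic and T cells through CCR7, at 119.8 and 101 FPKM in normal diet, 228 and 171 in non-tumour and 283 and 219 in tumour region cells. Cxcl2, a neutrophil attractant, was at 1.34 and 1.02 FPKM in normal diet, 3.24 and 2.87 in non-tumour and 15.2 and 9.26 in tumour region cells. All 4 had higher levels in both tumour region libraries than in either normal diet library, which the rule that chose them favours. Cxcl1 and Cxcl10 met the 2-fold rule but did not pass. Cxcl1 was at 137 and 21.7 FPKM in normal diet and 1288 and 88.7 in the tumour region (limma adjusted p = 0.0955) and Cxcl10 at 85.4 and 43.5 FPKM in normal diet and 888 and 111 in the tumour region (limma adjusted p = 0.108). Their 37 degree tumour region values stood far above the other libraries. Ackr4, a receptor that removes CCL19 and related chemokines, was the 1 lower member, at 31.8 and 31.5 FPKM in normal diet, 4.68 and 12.6 in non-tumour and 3.83 and 6.26 in tumour region cells (-2.46 ± 0.30, limma adjusted p = 0.0125). Calls of the whole list fell to 9 and 11 without the 37 and the 6 degree normal diet library. The macrophage markers, of which 74 of 94 passed as higher, moved with it. Of the 49 genes, 1 was at least 2-fold lower at 37 degrees in both pairs of libraries, against 48 of the 94 markers. Over all genes the share was 2.5%. As 1 of 49 is near that share, nothing is read from it. The part of macrophage RNA in these genes was not tested.

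Immediate early genes, which respond within minutes to stimulation or handling, had their highest list sum in the 37 degree tumour region library. Of 42 tested, 12 were members but 3 passed. Egr2, a zinc finger transcription factor, was at 37.95 and 4.24 FPKM in normal diet, 21.5 and 46.2 in non-tumour and 286 and 39.8 in tumour region cells (limma adjusted p = 0.14). Atf3, a stress-induced transcription factor, was at 179 and 11.2 FPKM in normal diet, 35.1 and 23.9 in non-tumour and 1285 and 32.8 in tumour region cells (limma adjusted p = 0.27). At 37 degrees the list sum was 8678 FPKM in normal diet, 4256 in non-tumour and 23180 in tumour region cells. At 6 degrees it was 1740 FPKM in normal diet, 3434 in non-tumour and 3276 in tumour region cells. The median log2 difference between tumour region and normal diet was 1.498 at 37 and 0.71 at 6 degrees. Rgs2, an inhibitor of G protein signalling, behaved differently, at 1.03 and 1.92 FPKM in normal diet, 6.75 and 12.9 in non-tumour and 20.4 and 14.8 in tumour region cells (2.92 ± 0.31, limma adjusted p = 0.01), and its call was lost without the 37 degree normal diet library. With the non-tumour libraries left out, 19 of the 42 genes passed.

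MHC class II genes ranked next after 8430408G22Rik by the smaller of the differences at the 2 temperatures, and their level moved with the macrophage markers. H2-Aa, the alpha chain of the class II molecule that presents peptides to CD4+ T cells (chromosome 17, 34282744 to 34287823), was at 4.51 and 29.5 FPKM in normal diet, 6.09 and 67.6 in non-tumour and 175 and 372 in tumour region cells and rose by 4.31 ± 0.49 (limma adjusted p = 0.0108). H2-Ab1, its beta chain, was at 9.31 and 58.95 FPKM in normal diet, 10.3 and 135 in non-tumour and 329 and 729.8 in tumour region cells. H2-Eb1, another beta chain, was at 2.17 and 13.6 FPKM in normal diet, 2.08 and 33.1 in non-tumour and 91.4 and 179 in tumour region cells, and Cd74, the invariant chain, at 15.2 and 113 FPKM in normal diet, 14.3 and 229.5 in non-tumour and 621 and 1205 in tumour region cells. For these 4 genes the levels were highest in both tumour region libraries and lower at 37 than at 6 degrees in every source. The loading genes H2-DMa and H2-DMb1 were members too and were chosen for naming after their values were seen; H2-DMa was at 0.869 and 4.35 FPKM in normal diet and 12.6 and 32.1 in tumour region cells. Of 25 antigen presentation genes tested 6 were members, all of class II, and 9 passed as higher (median 0.387). B2m, the light chain of class I, was at 5448 and 4885 FPKM in normal diet and 9527 and 7332 in tumour region cells and rose by 0.70 on the log2 scale. Of the 94 macrophage markers, 74 passed as higher and none as lower, with a median of 2.123, and 48 were at least 2-fold lower at 37 degrees in tumour region and normal diet cells. Of the 109 listed in the files none was at 0 in all 6 libraries. Clec4f of Kupffer cells was at 5.25 and 57.8 FPKM in normal diet and 30.1 and 85.1 in tumour region cells. The part of macrophage RNA in the class II result was not tested. Without the 37 or the 6 degree normal diet library 1 and 2 of the 25 genes passed, and 3 without the low-value filter. The H2 genes are similar to each other, so the division of reads between them is uncertain.

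Class II genes share a promoter module known as the X and Y boxes. The promoters of 2 of the 6 class II members are shown because they share a stretch of it, from RefSeq on GRCm38.p6, written 5′ to 3′ from 250 bases before to 50 after the start, at chr17:34305617-34305916 (plus strand) for H2-Eb1 and chr17:34152941-34153240 (plus strand) for H2-DMb1. Capitals mark CTAGNAACTGATGATGCT, the longest stretch the 2 promoters share with at most 1 mismatch (N), which holds the X box, and CCAAT on either strand, the core of the Y box.
H2-Eb1: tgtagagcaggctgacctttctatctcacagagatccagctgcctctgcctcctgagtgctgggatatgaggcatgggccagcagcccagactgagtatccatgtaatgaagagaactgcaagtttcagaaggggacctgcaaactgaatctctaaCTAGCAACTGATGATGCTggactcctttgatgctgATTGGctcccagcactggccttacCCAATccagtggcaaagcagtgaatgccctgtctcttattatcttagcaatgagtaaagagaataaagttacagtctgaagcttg
H2-DMb1: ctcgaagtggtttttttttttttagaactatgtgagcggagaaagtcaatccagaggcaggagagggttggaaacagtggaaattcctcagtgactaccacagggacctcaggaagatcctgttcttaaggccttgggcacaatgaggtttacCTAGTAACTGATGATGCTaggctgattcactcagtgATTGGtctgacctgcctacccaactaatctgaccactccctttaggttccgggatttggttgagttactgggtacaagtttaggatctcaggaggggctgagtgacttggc
In both the shared stretch was followed by CCAAT on the other strand. Searched on both strands, the stretch was found in 2 of 32851 RefSeq promoters of this length (0.00609%), those it was read from, and CCAAT in 37.4%. Of 280 promoters matched to 216 of the 292 higher genes, 33.9% held CCAAT.

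Leaving out the macrophage list did not remove all myeloid genes. Many other higher members are genes of myeloid cells that were not on that list. Ly86, Treml4, Clec4a1, Fpr1, Pilra, Lair1 and Siglece, named after their values were seen, are among them. Of the 292 higher members 189 were on no list, and how many of these are myeloid was not counted. Clec4a3, Ear2 and Clec4b1 were lower at 37 than at 6 degrees in every source. Clec4a3, a C-type lectin receptor, was at 0.292 and 3.07 FPKM in normal diet, 0.39 and 9.51 in non-tumour and 11.6 and 51.5 in tumour region cells (3.49 ± 0.31, limma adjusted p = 0.00716). Ear2, an eosinophil-associated ribonuclease, was at 0.37 and 4.3 FPKM in normal diet, 0.47 and 14.5 in non-tumour and 9.17 and 60.8 in tumour region cells, and the lectin gene Clec4b1 at 0 and 0.135 FPKM in normal diet, 0 and 2.51 in non-tumour and 7.06 and 13.1 in tumour region cells. At each temperature the tumour region library was the highest of the 3 for these genes, although the 6 degree non-tumour level of Ear2 exceeded its 37 degree tumour region level. S100a8 and S100a9, calcium-binding proteins of neutrophils, were higher as well. S100a9 was at 0 and 0.754 FPKM in normal diet and 4.94 and 22.3 in the tumour region, and S100a8 at 0.523 and 0.217 FPKM in normal diet and 3.66 and 33.6 in the tumour region; S100a8 did not pass (limma adjusted p = 0.0769). Esm1, Fabp4 and Cd36 had another order, with the non-tumour region also high. Fabp4, a fatty acid carrier of endothelial cells and macrophages, was at 1.63 and 74.5 FPKM in normal diet, 78.4 and 631 in non-tumour and 154 and 335 in tumour region cells (4.01 ± 0.81, limma adjusted p = 0.0419). Cd36, a fatty acid uptake receptor, was at 0.876 and 34.9 FPKM in normal diet, 24.8 and 243 in non-tumour and 25.6 and 124 in tumour region cells, and Esm1, an endothelial proteoglycan, at 0.172 and 4.34 FPKM in normal diet, 5.74 and 31.4 in non-tumour and 13.7 and 48.8 in tumour region cells. The endothelial marker sum was highest in the non-tumour library at each temperature and higher at 6 degrees in each source; its part in these 3 genes was not tested. The call of Fabp4 was lost without the 37 degree normal diet, the 37 degree tumour region or either non-tumour library.

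Genes of the cell cycle made up the largest group of lower members. Of 51 tested, 27 were members, all lower, and 36 passed as lower and 2 as higher, with a median log2 difference of -1.42. Ccnb2, a cyclin of mitotic entry, was at 26.02 and 44.7 FPKM in normal diet, 2.2 and 6.67 in non-tumour and 3.71 and 11.2 in tumour region cells (-2.21 ± 0.18, limma adjusted p = 0.00716). Cdc20, which turns on the ubiquitin ligase that starts anaphase, was at 29.8 and 46.7 FPKM in normal diet, 1.93 and 7.28 in non-tumour and 3.1 and 13.8 in tumour region cells (-2.30 ± 0.29, limma adjusted p = 0.0143). Stmn1, a microtubule destabiliser, was the most abundant of them, at 156 and 212 FPKM in normal diet, 14.3 and 37.8 in non-tumour and 30.6 and 66.7 in tumour region cells (-1.98 ± 0.22, limma adjusted p = 0.0103). For these 3 genes the normal diet libraries stood above all others and the non-tumour libraries were the lowest at each temperature. Tk1, thymidine kinase of S phase, was at 25.1 and 35.4 FPKM in normal diet, 1.7 and 5.75 in non-tumour and 4.83 and 11.1 in tumour region cells, and Birc5, survivin, at 23.9 and 40.7 FPKM in normal diet, 1.71 and 6.85 in non-tumour and 3.16 and 12.8 in tumour region cells. The spindle genes Prc1 and Kif20a had the same order. Over the list the median tumour minus non-tumour difference was 0.518 with no gene passing in either direction. The 2 genes that rose were the D-type cyclins of growth factor signalling, Ccnd1 (1.24 on the log2 scale) and Ccnd2 (0.62); Ccnd1 was named after its values were seen. Proliferation calls fell to 12 without the 37 degree normal diet library, to 22 without the 37 degree tumour region library, to 24 without the 37 degree non-tumour library and to 16 without the low-value filter.

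Many mitotic genes share the CCAAT box and a cell cycle element known as CHR in their promoters. RefSeq promoters (GRCm38.p6) are shown for the 3 members of this list with the largest smaller difference among those matched to a promoter, from 250 bases before to 50 after the start: chr9:70421505-70421804 for Ccnb2, chr13:100786437-100786736 for Ccnb1 and chr4:118437294-118437593 for Cdc20, all on the minus strand and written 5′ to 3′. Capitals mark CCAAT and the CHR motifs TTTGAA and TTCGAA on either strand.
Ccnb2: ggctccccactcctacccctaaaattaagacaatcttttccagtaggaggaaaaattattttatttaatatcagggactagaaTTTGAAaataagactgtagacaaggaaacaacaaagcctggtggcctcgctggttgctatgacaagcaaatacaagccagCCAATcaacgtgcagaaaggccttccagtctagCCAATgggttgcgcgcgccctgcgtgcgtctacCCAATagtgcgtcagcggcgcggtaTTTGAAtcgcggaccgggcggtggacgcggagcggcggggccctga
Ccnb1: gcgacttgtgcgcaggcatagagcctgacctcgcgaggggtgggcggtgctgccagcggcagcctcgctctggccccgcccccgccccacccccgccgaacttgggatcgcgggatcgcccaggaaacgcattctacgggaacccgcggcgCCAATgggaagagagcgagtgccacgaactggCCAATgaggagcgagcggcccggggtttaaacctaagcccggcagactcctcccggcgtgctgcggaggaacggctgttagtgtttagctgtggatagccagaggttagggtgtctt
Cdc20: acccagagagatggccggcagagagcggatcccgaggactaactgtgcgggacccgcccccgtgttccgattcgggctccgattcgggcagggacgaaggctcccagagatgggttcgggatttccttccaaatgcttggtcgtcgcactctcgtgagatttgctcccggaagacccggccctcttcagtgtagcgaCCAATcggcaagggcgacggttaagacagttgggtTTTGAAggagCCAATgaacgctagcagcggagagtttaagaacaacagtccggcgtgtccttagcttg
The Ccnb2 promoter held 3 CCAAT boxes and 2 CHR matches, that of Ccnb1 held 2 CCAAT boxes and no CHR match, and that of Cdc20 held 2 and 1. Of 23 promoters matched to 22 of the 27 lower list members, 16 (69.6%) held both motifs, against 7.52% of all 32851 promoters. CCAAT was in 82.6% and CHR in 73.9% of them, against 37.4% and 19.2% of all. Among promoters of the other lower genes 21.6% held both, and among those of higher genes 4.64%. The other lower genes still include cell cycle genes that are not on the list, such as Cdkn3, Kif22 and Fam64a. The share among list genes that were not members was not counted. The 2 motifs do not overlap in the sequences shown.

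Apart from the cell cycle, lower members included genes of high and of moderate level in normal diet cells. Of the 146 lower genes, 32 were at 20 FPKM or more in both normal diet libraries. Fcna, ficolin A, a lectin of the complement system (chromosome 2, 25624666 to 25628030), was the most abundant, at 3140.4 and 3217 FPKM in normal diet, 1003 and 586 in non-tumour and 739 and 471 in tumour region cells (-2.43 ± 0.21, limma adjusted p = 0.00716). Spon2, a secreted matrix protein of innate immunity (chromosome 5, 33198184 to 33218455), was at 244 and 153 FPKM in normal diet, 84.9 and 54.99 in non-tumour and 56.3 and 38.5 in tumour region cells (-2.03 ± 0.09, limma adjusted p = 0.00442). Inmt, an indolethylamine methyltransferase, was at 90.96 and 96.6 FPKM in normal diet, 12.8 and 7.41 in non-tumour and 16.1 and 8.18 in tumour region cells. All normal diet values of these 3 genes lay above all tumour and non-tumour values. For the tumour region values the rule favours this. Lcn8, a lipocalin, was at 17.6 and 28.2 FPKM in normal diet, 2.06 and 1.69 in non-tumour and 3.22 and 1.26 in tumour region cells, and Igsf21, an immunoglobulin superfamily adhesion protein, at 10.8 and 14.9 FPKM in normal diet, 2.29 and 0.697 in non-tumour and 1.79 and 0.463 in tumour region cells. Ano1, a calcium-activated chloride channel, was at 80.9 and 71.3 FPKM in normal diet, 38.2 and 27.04 in non-tumour and 24.1 and 21.2 in tumour region cells, and Itm2a, a membrane protein, at 66.3 and 53.3 FPKM in normal diet, 29.2 and 16.5 in non-tumour and 22.3 and 12.6 in tumour region cells. The list of quiescent stellate genes was split. Of 46 tested, 9 passed as higher and 11 as lower with a median of -0.024. With quantile normalization 8 passed as higher and 17 as lower. The lower calls fell to 4 without either normal diet library or the 37 degree tumour region library, to 6 and 7 without the 6 degree tumour region and the 37 degree non-tumour library, and to 5 without the low-value filter. Higher calls fell to 4 without that filter or the 6 degree normal diet library, to 5 without the 37 degree normal diet or tumour region library and to 6 without the 6 degree tumour region library. Dcn, decorin, the most abundant of them, was at 12737 and 11308 FPKM in normal diet and 15410.5 and 11148 in tumour region cells (limma adjusted p = 0.623). Hgf, hepatocyte growth factor, was at 479 and 382 FPKM in normal diet and 373 and 275 in the tumour region (limma adjusted p = 0.0444), and its call was lost without any 1 of the 6 libraries.

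**Figure D5:**
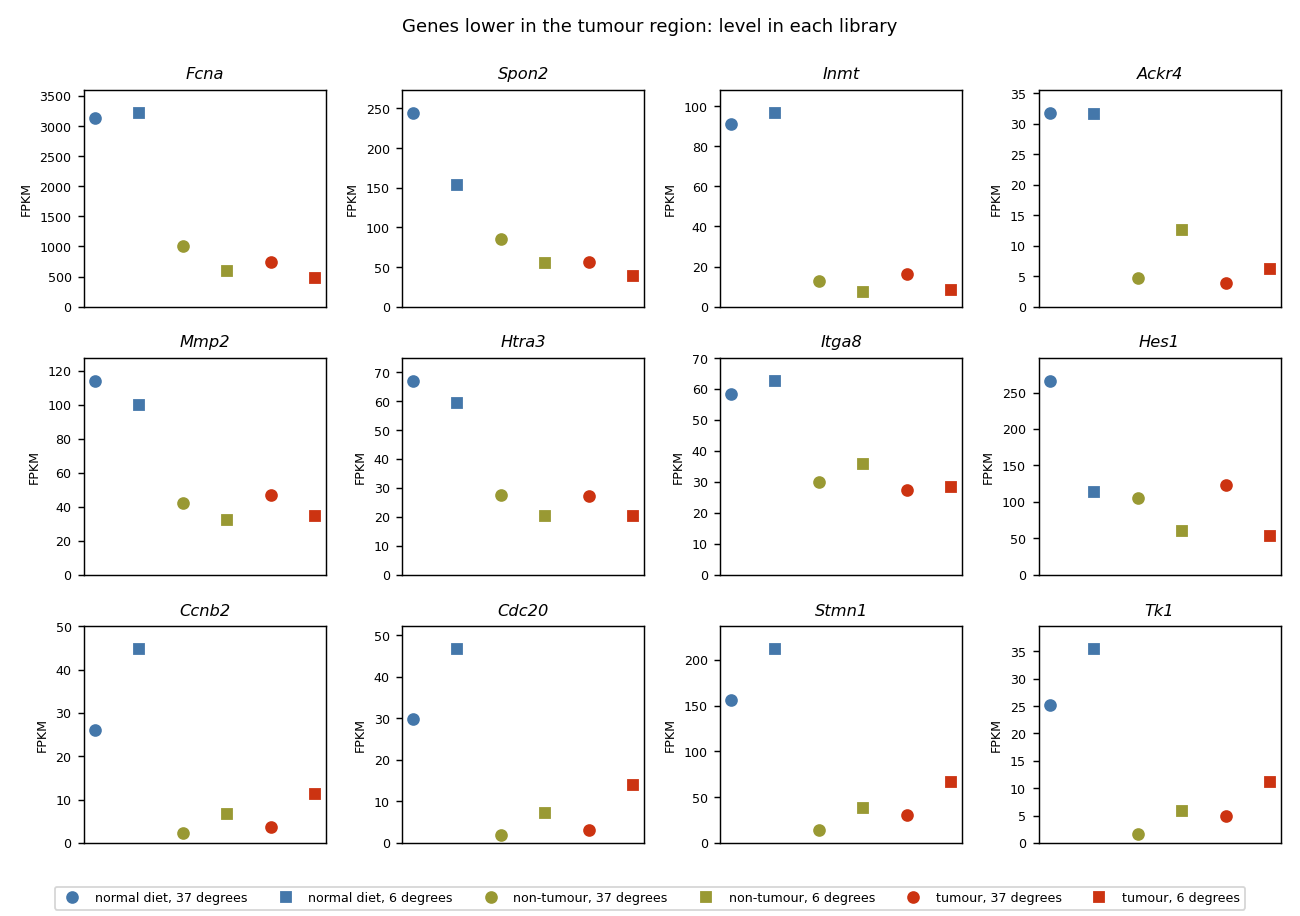
Level in FPKM (vertical axis, from 0) of 12 genes lower in the tumour region, 1 panel per gene and 1 point per library, coloured by source with circles for 37 and squares for 6 degrees. In 11 of the panels the 2 normal diet libraries stood above the 2 tumour region libraries, which the rule that chose the genes favours. For Hes1 the 37 degree tumour region library (123 FPKM) exceeded the 6 degree normal diet library (114 FPKM).

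Cyp2e1, Ass1, Gsta4, Nqo1, Dgat2 and Cox8b, genes of metabolism and detoxification, were lower members, although the lists that hold the first 5 of them did not move one way. Cyp2e1, a cytochrome P450 of hepatocytes (chromosome 7, 140763739 to 140774987), was at 39.4 and 48.7 FPKM in normal diet, 4.02 and 6.45 in non-tumour and 4.34 and 3.53 in tumour region cells (-3.19 ± 0.21, limma adjusted p = 0.00693). Ass1, of the urea cycle, was at 9.76 and 9.99 FPKM in normal diet, 0 and 0.601 in non-tumour and 0 and 1.82 in tumour region cells, so that it was listed at 0 at 37 degrees in both high fat diet sources. Both genes are on the hepatocyte marker list, whose sum was 841 and 1594 FPKM in normal diet, 656 and 734 in non-tumour and 920 and 735 in tumour region libraries, with 2 of 40 genes passing as higher and 3 as lower; its part in these genes was not tested. Gsta4, a glutathione transferase for lipid peroxidation products, was at 81.2 and 77.7 FPKM in normal diet and 33.9 and 21.8 in tumour region cells, and Nqo1, a quinone reductase, at 9.69 and 10.5 FPKM in normal diet and 3.56 and 4.36 in the tumour region. Dgat2, which makes triglycerides and serves lipid droplets, was at 10.9 and 11.5 FPKM in normal diet and 3.03 and 2.01 in tumour region cells. Cox8b, a subunit of cytochrome oxidase, was at 11.2 and 5.69 FPKM in normal diet and 1.09 and 0.308 in the tumour region. Of 54 stress response genes tested, the list of Gsta4 and Nqo1, 9 passed as higher and 3 as lower (median 0.203). Of 51 lipid genes, the list of Dgat2, 7 passed as higher and 1 as lower (median -0.01). Without the 37 degree normal diet library the higher calls fell to 1 in each list, without the 6 degree one to 4 and 3, and without the 37 degree tumour region library to 3 and 2. Without the 6 degree tumour region library the stress response list had 15, and without either non-tumour library the lipid list had 4. The call of Nqo1 was lost without either normal diet or the 37 degree tumour region library. Pparg, the adipogenic nuclear receptor, went the other way, at 0.0972 and 0.715 FPKM in normal diet and 3.48 and 9.12 in tumour region cells, low in level and lower at 37 degrees.

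Against the non-tumour region, 52 genes (0.45%) passed as higher in the tumour region and 0 (0%) as lower by limma, with 736 and 434 at an unadjusted p under 0.05. Of the 52, 29 were among the 94 macrophage markers tested, which were left out of the chosen genes. The comparison with the non-tumour region shares the tumour region libraries with that choice. Of the 292 higher genes 19 passed and of the 146 lower genes none. Wisp2, a matricellular protein of the CCN family, was at 1.46 and 3.33 FPKM in normal diet, 2.52 and 2.1 in non-tumour and 16.1 and 21.05 in tumour region cells. Its normal diet and non-tumour levels overlapped and both tumour region libraries were higher, with a tumour minus non-tumour difference of 2.56 ± 0.25 (limma adjusted p = 0.039). Cnn1, calponin, an actin-binding protein of smooth muscle, was at 0.131 and 0.326 FPKM in normal diet, 0.39 and 0.468 in non-tumour and 3.24 and 5.11 in tumour region cells. Cnn1 and Mmp13 were under 1 FPKM in the other 4 libraries and passed the low-value filter only through the tumour region libraries that chose them, so their values are a description. Gdf15, described above, differed by 2.60 ± 0.22 (limma adjusted p = 0.0383), and Cxcl2 by 1.67 ± 0.18 (limma adjusted p = 0.0435). Most of the other 14 are myeloid genes such as Clec4a3 (2.75 ± 0.31, limma adjusted p = 0.0451), and the macrophage marker sum was 1156 and 2419 FPKM in the non-tumour and 3203 and 5998 in the tumour region libraries; its part in these genes was not tested. With a pseudocount of 0.1, a mean of at least 5 FPKM or no low-value filter, 0 genes passed in this comparison, with 1140, 760 and 1654 at an unadjusted p under 0.05, and the same held for 4 of the 6 libraries left out in turn.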

How the data were processed

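RNA of 6 libraries of sorted stellate cells was sequenced, and the FPKM values per gene symbol were deposited by the authors. TopHat2 2.1.1, Bowtie2, Cuffdiff 2.2.1 and the mm10 genome are listed per the submitters' processing notes; for the annotation, the strand setting and the scaling: not given in the sources used here. FPKM keeps no counts, so depth was estimated from the steps between low values of single-transcript genes and is approximate. Genes averaging 1 FPKM or more across all 6 libraries were tested in limma 3.58.1 (R 4.3.3) on log2(FPKM + 1), a scale that understates the change of low genes, after leaving out small RNA symbols. The model had terms for source and temperature, which pairs the libraries of a temperature, with an intensity trend; p-values were adjusted by Benjamini-Hochberg over all 11556 genes and called under 0.05. Errors are standard errors from that model. Each source has 1 library per temperature, so no spread within a combination could be measured.

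Members and gene lists were chosen with earlier results of these data known. Named were, ranked by the smaller difference, the first 12 members in each direction that are on no marker list, the first 12 of those with at least 20 FPKM in both libraries of the higher group, up to 4 members per list and direction, up to 4 other genes of a described list by mean FPKM, the sort marker genes and the genes next to the threshold. Coordinates are those of GENCODE on GRCm38, the mm10 assembly, and promoters those of RefSeq on GRCm38.p6. The tests were checked on simulated data. The alternatives were another pseudocount, low-value filter, normalization, set of libraries, model term, variance prior and fold limit, and each library left out in turn.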

Additional observations from a re-analysis of the deposited data

Results flagged for a closer look

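The hepatocyte marker genes moved in opposite directions at the 2 isolation temperatures. The median difference between tumour region and normal diet over the 40 tested was 1.018 at 37 degrees and -1.446 at 6 degrees on the log2(FPKM + 1) scale. Each value rests on 1 library per source, and the difference between the temperatures was not tested.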

How the results depend on the processing

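For tumour region against normal diet, 1082 genes passed. Raising the filter to 5 FPKM gave 681, and the count was 505 with no low-value filter, 657 with the tumour region and normal diet libraries only and 4 with no temperature term, and 303 to 980 with 1 library left out. For tumour against non-tumour region, 52 genes passed by limma. There were 0 with a pseudocount of 0.1 FPKM, a mean of at least 5 FPKM, no low-value filter or no temperature term (1140, 760, 1654 and 530 at an unadjusted p under 0.05), 1 with small RNA symbols kept, 122 with robust empirical Bayes, and 0 to 165 with 1 library left out. The 292 higher genes became 178 with a mean of at least 5 FPKM, 650 at 1.5-fold and 112 at 3-fold. The 146 lower genes became 224 with a pseudocount of 0.1 FPKM, 78 with a mean of at least 5 FPKM, 391 at 1.5-fold and 34 at 3-fold. With 1 library left out, so that 1 temperature could be held to the rule, they became 437 to 619 and 289 to 294. The stricter filter tests fewer genes; the cause of the other changes was not tested. Of 159 named genes that passed, 0 lost the call with median-ratio rescaling, 158 with no temperature term, 66 with no low-value filter, and 26 to 78 with 1 library left out. H2-K1 reversed to -0.094 under quantile normalization. A source left with 1 library is assumed to vary like the others. Counts per gene list under the alternatives were added after seeing the data. The libraries were paired by the temperature term, and the labels give no replicate numbers to pair them by. Low genes are limited by depth: 1 FPKM on a transcript of 2 kb stood for 35.0 to 49.1 fragments.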
